A study of Mus musculus with 2 samples.

Results

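Calcium, calcineurin and NFAT signalling was examined in splenic B cells through 9 genes: the transcription factors Nfatc1, Nfatc2 and Nfatc3, the calcineurin catalytic subunits Ppp3ca and Ppp3cb, the calmodulin genes Calm2 and Calm3, the inositol trisphosphate (IP3) receptor gene Itpr1, and Stim1. A probe set, which is a group of short probes for 1 transcript, was taken where the platform's gene annotation gave exactly 1 of these symbols. This found 15 probe sets for 6 of the 9 genes, out of 20380 probe sets for 12393 genes on the array. Calm2, Calm3 and Itpr1 were not analysed here. The samples were 2 arrays of cells positive for surface IgM and IgD, sorted by flow cytometry from the spleens of mice labelled as wild type with no genetic modification, and 1 array was used per sample. The study paired them with B cells in which serum response factor (SRF) had been deleted. Those arrays were not analysed here, and genotypes were not compared. Replicate 1 and replicate 2 are names without order, and whether different mice were used is not stated in the labels. The strain and age of the mice are not given in the sources used here.

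In B cells, engagement of the antigen receptor activates phospholipase C gamma 2, which releases IP3. IP3 opens receptors in the endoplasmic reticulum, and the fall in stored calcium is sensed by STIM1, which opens ORAI channels in the plasma membrane. Calcium bound to calmodulin activates the phosphatase calcineurin, which removes phosphate from NFAT proteins and so lets them enter the nucleus. Kinases such as GSK3, DYRK1A and casein kinase 1 return NFAT to the cytoplasm. Calcineurin is the target of the immunosuppressants cyclosporin A and FK506.

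RefSeq promoter windows of GRCm38.p6 ran from 250 bases before to 50 bases after a transcription start. Of these, 7 windows of 5 of the 9 genes were used. No window of Nfatc1 was used, because windows on its chromosome were left out. The windows of Nfatc2, Nfatc3 and Ppp3cb are shown because they hold or lack the short core that NFAT proteins bind. Nfatc2 and Nfatc3 also have a pair of listed starts each. Each window is written 5′ to 3′ on the strand of the gene. Capitals mark GGAAA, the NFAT core, or TTTCC, the same core on the opposite strand.
Nfatc2, upstream start (chr2:168601608-168601907, minus strand): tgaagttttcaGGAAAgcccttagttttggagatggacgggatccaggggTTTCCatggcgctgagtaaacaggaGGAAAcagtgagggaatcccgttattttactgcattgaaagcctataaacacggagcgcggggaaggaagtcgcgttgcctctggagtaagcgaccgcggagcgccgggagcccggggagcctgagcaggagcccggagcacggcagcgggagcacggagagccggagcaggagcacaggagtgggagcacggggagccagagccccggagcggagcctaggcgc
Nfatc2, downstream start (chr2:168590316-168590615, minus strand): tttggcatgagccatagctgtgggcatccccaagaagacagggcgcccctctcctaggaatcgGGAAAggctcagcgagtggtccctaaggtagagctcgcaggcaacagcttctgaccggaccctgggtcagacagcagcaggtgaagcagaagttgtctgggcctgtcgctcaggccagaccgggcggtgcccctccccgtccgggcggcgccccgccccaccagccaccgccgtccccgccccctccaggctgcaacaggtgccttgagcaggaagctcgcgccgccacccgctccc
Nfatc3, upstream start (chr8:106058568-106058867, plus strand): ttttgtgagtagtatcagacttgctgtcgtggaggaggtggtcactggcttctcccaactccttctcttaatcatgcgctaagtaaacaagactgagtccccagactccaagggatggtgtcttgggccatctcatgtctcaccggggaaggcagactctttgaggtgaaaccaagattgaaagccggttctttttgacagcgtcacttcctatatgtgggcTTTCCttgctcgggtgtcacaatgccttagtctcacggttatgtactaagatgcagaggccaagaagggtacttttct
Nfatc3, downstream start (chr8:106059340-106059639, plus strand): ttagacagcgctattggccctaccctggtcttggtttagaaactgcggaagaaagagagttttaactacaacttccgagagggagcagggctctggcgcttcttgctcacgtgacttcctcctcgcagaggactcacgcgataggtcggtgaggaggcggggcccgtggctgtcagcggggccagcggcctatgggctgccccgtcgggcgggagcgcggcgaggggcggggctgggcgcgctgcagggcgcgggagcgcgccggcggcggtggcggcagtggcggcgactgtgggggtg
Ppp3cb (chr14:20546524-20546823, minus strand): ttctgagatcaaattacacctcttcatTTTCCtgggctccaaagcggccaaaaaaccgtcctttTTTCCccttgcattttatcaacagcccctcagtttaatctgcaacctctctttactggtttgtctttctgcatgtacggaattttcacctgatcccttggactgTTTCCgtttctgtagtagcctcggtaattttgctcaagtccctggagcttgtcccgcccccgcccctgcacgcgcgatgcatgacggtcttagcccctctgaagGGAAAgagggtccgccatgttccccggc

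The upstream window of Nfatc2 held 3 NFAT cores, whose first printed bases lay 239, 200 and 175 bases before the start, and the downstream window held 1. The upstream window of Nfatc3 held 1 core and its downstream window 0. The Ppp3cb window held 4 cores, 3 before the start and 1 after it. The Stim1 window, with a GC content of 78.7%, held 0. Among all 32851 promoter windows in the table, 61.3% held at least 1 core on either strand, 9.42% at least 3 and 2.65% at least 4. The CArG box, the element bound by SRF, was found in 0 of the 7 windows and in 1.63% of all windows, so no core overlapped one. These matches describe letters in a window of 300 bases, and binding was not measured.

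The array values are MAS5 signals, a linear brightness per probe set that the authors scaled to a common level on each array. A signal was read against a floor, the 90th percentile of 75 probe sets of 45 genes that are restricted to other organs. The floor was 156 on replicate 1 and 107 on replicate 2, and by construction about 10% of those probe sets exceed it. A probe set is called above both floors where it exceeded the floor of each array. Probes differ in affinity, so no signal was set against that of another probe set as a quantity of RNA. Differences between arrays are log2 signals of replicate 2 minus replicate 1. With 2 samples of 1 group no test was possible, so these differences describe the spread between samples.

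Calcineurin catalytic subunits and the NFAT members Nfatc1 and Nfatc3 were above both floors, whereas Nfatc2 and Stim1 were not. Of the 15 member probe sets, 7 (46.7%) were above both floors, against 24.5% of all probe sets naming 1 gene. One more, of Nfatc2, was above the floor on replicate 1 alone, 0 on replicate 2 alone and 7 on neither array. Taken singly, replicate 1 had 8 member probe sets above its floor, against 34.5% of all probe sets naming 1 gene. Replicate 2 had 7, against 36.4%. By gene, 4 of 6 had at least 1 probe set above both floors, against 30.3% of all genes. That comparison is not like for like, because a gene with more probe sets has more chances to pass. The 6 genes had 15 probe sets, where all 12393 genes had 20380. Only Nfatc3 and Ppp3ca had every probe set above both floors, which held for 9.16% of all genes with several probe sets. With the floor at the 95th percentile, 4 probe sets of 2 genes, Nfatc1 and Ppp3ca, were above both floors, against 14.9% of all probe sets and 19.1% of all genes. In pooled cells a smaller share of expressing cells and less RNA per cell cannot be told apart.

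**Figure D1:**
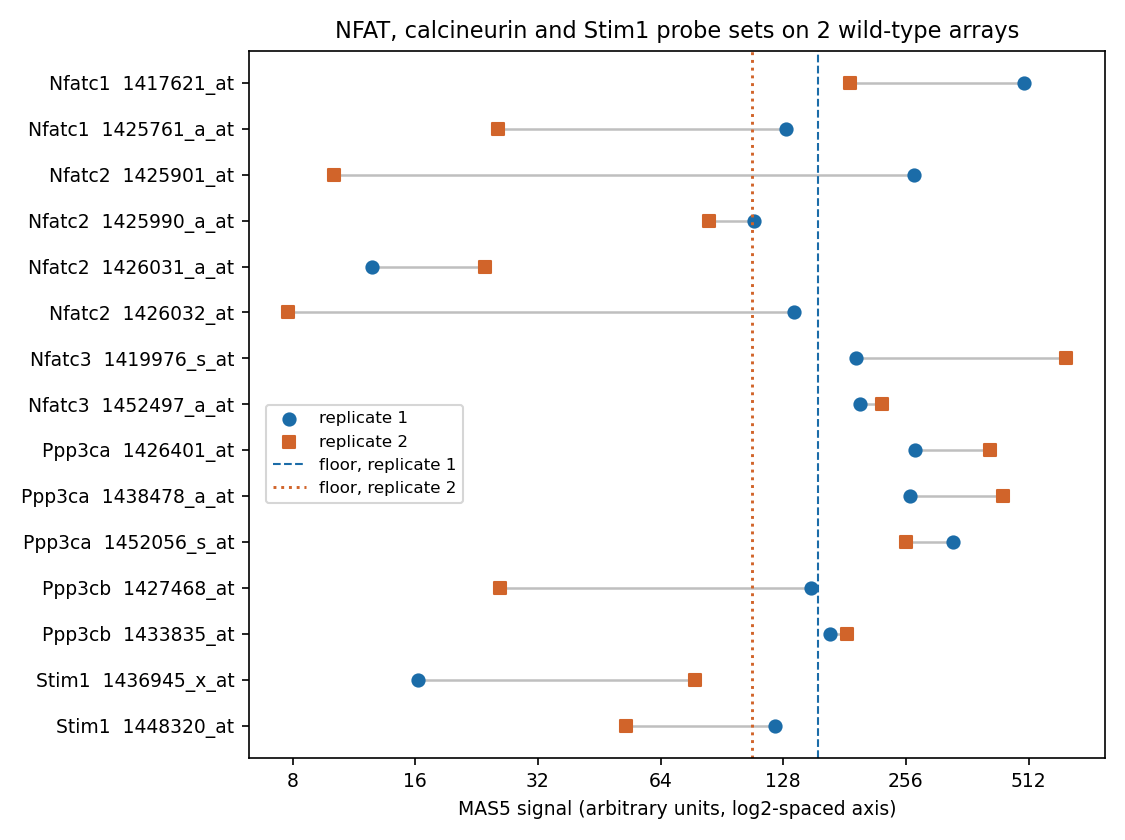
MAS5 signal (log2-spaced axis, arbitrary units) of each of the 15 member probe sets on replicate 1 (circles) and replicate 2 (squares), with the floor of each array as a dashed or dotted line. Both Nfatc3 and all 3 Ppp3ca probe sets lie right of both floors, whereas the 4 Nfatc2 probe sets scatter from 7.8 to 268 and each Stim1 point lies left of the floor of its own array.

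Nfatc1, which in lymphocytes has a short isoform that is induced after activation, was above the floor by 1 of its 2 probe sets. Probe set 1417621_at gave 500.2 on replicate 1 and 187 on replicate 2, averaging 344 ± 221 (SD, n = 2). It was 2.67-fold higher on replicate 1, a log2 difference of -1.42. Over all probe sets above both floors, the pooled SD of log2 signal was 0.63, or 1.55-fold. This is the SD of a single signal, and differences between the arrays vary by more than that. The second probe set, 1425761_a_at, gave 130 and 25.5 and was below both floors. Its suffix marks probes shared by several transcripts of the gene. Both Nfatc1 probe sets thus read lower on replicate 2, the second at signals where no level was resolved.

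Nfatc2, also called NFAT1 and a principal NFAT protein of resting T cells, was not above both floors by any of 4 probe sets. Probe set 1425901_at gave 268 on replicate 1 and 10.1 on replicate 2. Taking replicate 2 at its floor, its deposited signal was at least 2.49-fold higher on replicate 1. That bound would be smaller with median centring, which moved the log2 difference of this probe set from -4.73 to -4.09. Probe set 1425990_a_at gave 108 on replicate 1 and 84.3 on replicate 2, below the floor of each array. The remaining pair, 1426031_a_at and 1426032_at, was annotated to the same target record. The first gave 12.5 and 23.8 on replicates 1 and 2, the second 136 and 7.8, and each of these readings was below the floor of its array. On replicate 2, all 4 Nfatc2 probe sets were below the floor.

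Nfatc3, which also acts in thymocyte and lymphocyte calcium responses, was above both floors by both probe sets. Probe set 1419976_s_at gave 193 on replicate 1 and 632 on replicate 2, averaging 413 ± 310 (SD, n = 2), and was 3.27-fold higher on replicate 2. Probe set 1452497_a_at gave 197 on replicate 1 and 224 on replicate 2, averaging 211 ± 18.7 (SD, n = 2), or 1.13-fold. Both were higher on replicate 2, the second within 2-fold. Neither passed with the floor at the 95th percentile. The suffix _s_at of the first marks probes that can match transcripts of more than 1 gene. With median centring of the arrays, the log2 difference of 1419976_s_at was 2.34, against 1.71 from the deposited signals.

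Ppp3ca, the alpha catalytic subunit of calcineurin, was above both floors by each of its 3 probe sets. Probe set 1426401_at gave 270.2 on replicate 1 and 413 on replicate 2, averaging 341 ± 101 (SD, n = 2). Probe set 1438478_a_at gave 263 and 444, averaging 353 ± 128 (SD, n = 2). Both were higher on replicate 2, by log2 differences of 0.61 and 0.76, and lay within 2-fold. The third probe set, 1452056_s_at, gave 335 and 256, averaging 295 ± 55.3 (SD, n = 2), and ran the other way with a log2 difference of -0.38. It was annotated to the same target record as 1426401_at, and its suffix marks probes that can match transcripts of more than 1 gene. With median centring its difference turned to 0.25, and those of the other pair became 1.24 and 1.39, past 2-fold.

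Ppp3cb, the beta catalytic subunit, whose loss in mice impairs T cell development, was above the floor by 1 of 2 probe sets. Probe set 1433835_at gave 166 on replicate 1 and 184 on replicate 2, averaging 175 ± 12.5 (SD, n = 2), or 1.11-fold apart. Probe set 1427468_at gave 150 and 25.9 and was below both floors. The passing probe set lay just above the floor of 156 on replicate 1, and it no longer passed with the floor at the 95th percentile.

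Stim1, the calcium sensor of the endoplasmic reticulum, was below both floors by both probe sets. Probe set 1448320_at gave 122 on replicate 1 and 52.7 on replicate 2. Probe set 1436945_x_at, of a class that can cross-hybridize, gave 16.3 and 77.7. The arrays thus resolved no Stim1 level in these cells, which does not show that the transcript was missing.

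The 7 member probe sets above both floors differed between the samples in both directions. Their median log2 difference was 0.18, within a range from -1.42 to 1.71, and the median over all 4995 probe sets above both floors was 0.051. Of the 7, 2 were over 2-fold apart, against 24.4% of all such probe sets. Nfatc3 1419976_s_at was the one over 2-fold higher on replicate 2, where 14.8% of all such probe sets were. Nfatc1 1417621_at was the one over 2-fold higher on replicate 1, where 9.57% were. With median centring Nfatc1 1417621_at was within 2-fold, at -0.78, while quantile normalization gave -1.52. Of the 8 other member probe sets, 6 read higher on replicate 1, as did 61.6% of all probe sets not above both floors, and the median signal of the array was 103 on replicate 1 and 66.6 on replicate 2.

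**Figure D2:**
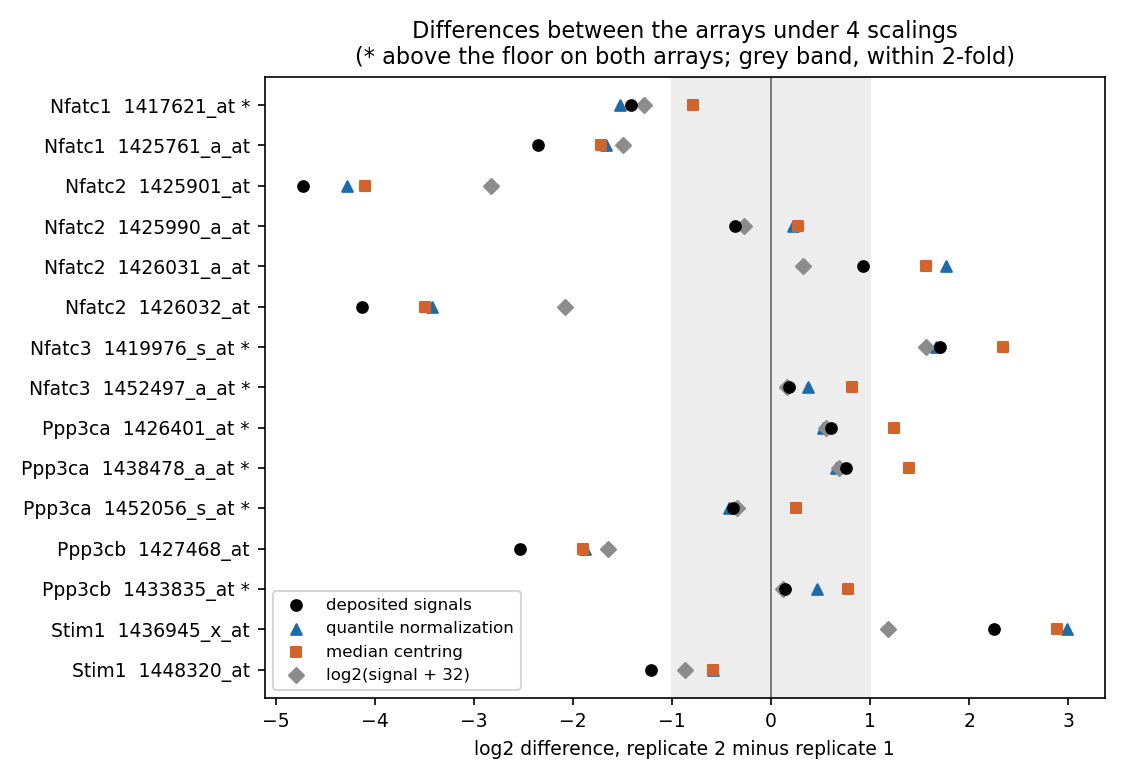
Log2 difference of replicate 2 minus replicate 1 for each member probe set from the deposited signals, after quantile normalization, after median centring and as log2(signal + 32), with probe sets above both floors starred and the range within 2-fold in grey. Of the starred probe sets, Nfatc3 1419976_s_at lies right of the grey band under every scaling shown, and Nfatc1 1417621_at lies left of it except with median centring. Differences of the other probe sets use signals below a floor.

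**Figure D3:**
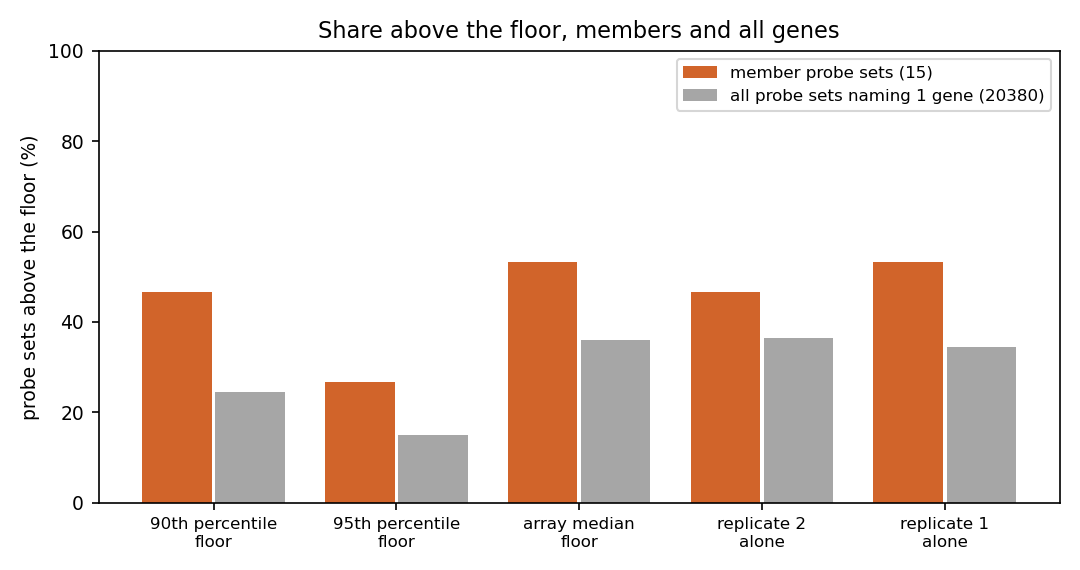
Percentage of the 15 member probe sets and of all 20380 probe sets naming 1 gene above the floor, on both arrays with 3 choices of floor and on each array alone. The member share was 46.7% against 24.5% with the 90th-percentile floor, and 26.7% against 14.9% with the 95th-percentile floor.

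Replicate 2 differed from replicate 1 in the controls on the array. All 18 control probe sets for bacterial and phage transcripts were higher on replicate 1, by 3.39-fold to 13.2-fold with a median of 5.17-fold. The 3′ to 5′ signal ratio of Actb was 3.57 on replicate 1 and 8.15 on replicate 2. That of Gapdh was 1.31 on replicate 1 and at least 7.67 on replicate 2, whose 5′ signal was below the floor and was set to it. The part of these differences in the readings of Nfatc1, Nfatc2, Ppp3cb and Stim1 on replicate 2 was not tested.

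All 6 measured B cell markers were above both floors. They were Cd79a, Cd79b, Ms4a1, Cd22, Ighm and Cr2. The levels were not equal on the arrays. Cd79a gave 2931 on replicate 1 and 192 on replicate 2, 15.3-fold apart. By the probe set of highest mean log2 signal, the other B cell markers read higher on replicate 2. A further Cd22 probe set, 1419769_at, gave 889 on replicate 1 and 274 on replicate 2. Of 33 markers of 8 other cell types, 5 (15.2%) were above both floors, against 30.3% of all genes. These were 2 of 5 markers of monocytes and macrophages, Csf1r and Lyz2, and 3 of 4 markers of neutrophils, S100a8, S100a9 and Ngp. Of 8 T cell markers, which matter here because T cells express Nfatc2, 0 were above both floors. Their summed signal, with 1 probe set per gene, was 574 on replicate 1 and 223 on replicate 2. The T cell receptor gene Cd3e gave 31.1 and 16.1, below both floors. The adaptor gene Lat gave 230.1 on replicate 1, above the floor, and 7.8 on replicate 2. No other T cell marker measured was above the floor on either array. Nfatc2 1425901_at was also above the floor on replicate 1 alone. The same held for the erythroid marker Gata1 and the platelet marker Itga2b, so this pattern was not limited to T cell markers. Any part of T cell RNA in the Nfatc2 reading was not tested.

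Genes of the rest of the pathway were in part above both floors. Of 70 other genes of the pathway listed by role, 53 were measured. Of the 53, 23 (43.4%) had a probe set above both floors, against 30.3% of all genes. Genes with more probe sets have more chances to pass. Roles held at most 9 measured genes, so the counts per role below are small and stand against the same 30.3%. By the probe set of highest mean log2 signal per gene, the median log2 difference of these 23 was -0.010, against 0.076 over all genes above both floors. By that probe set, 16 of the 23 lay within 2-fold. Replicate 2 was over 2-fold higher in 5 genes and replicate 1 in 2, where 24.2% of all genes above both floors were over 2-fold apart in either direction.

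Upstream, 5 of 8 genes of IP3 production were above both floors. The adaptor gene Blnk gave 1856 on replicate 1 and 2095 on replicate 2, the phospholipase gene Plcg2 gave 830 and 884, and the kinase gene Btk 611 and 484. Syk, the kinase that phosphorylates BLNK, gave 853 on replicate 1 and 2779 on replicate 2 by 1418261_at. Its probe set 1418262_at gave 564 and 819, within 2-fold. Plcg1, the isoform used by T cells, gave 12.4 and 5.6, below both floors. It was named after its values were seen, as were Cd3e and Lat.

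Of 5 IP3 and ryanodine receptor genes, 2 were above both floors. Itpr3 gave 571 on replicate 1 and 506 on replicate 2, and Itpr2 gave 266 and 412 by 1427287_s_at. Itpr2 also passed by 1424834_s_at, with 220 and 241, while its other probe sets were below both floors. Both passing Itpr2 probe sets end in _s_at, which marks probes that can match transcripts of more than 1 gene. The 3 ryanodine receptor genes, which encode release channels best known in muscle and brain, were below both floors. Of 3 measured genes of store-operated entry 1 passed, Saraf, a negative regulator of STIM1, with 455 on replicate 1 and 442 on replicate 2. Orai1, which encodes the pore of the channel that STIM1 opens, was named after its values were seen. It gave 118 and 103 by 1424989_at, below both floors, and 192 and 44.9 by 1424990_at, above the floor on replicate 1 alone.

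Calcium clearance was represented by the pump genes Atp2a2 and Atp2a3 and by Letm1, a gene of the inner mitochondrial membrane, and 3 of 4 measured genes of that group were above both floors. Atp2a2 gave 295 on replicate 1 and 730.1 on replicate 2 by 1427250_at, while its 1416551_at gave 236 and 307. Atp2a3, a pump isoform prominent in blood cells, gave 341 on replicate 1 and 329 on replicate 2 by 1421129_a_at, while 1450124_a_at gave 170 and 11.2, the second below the floor. Letm1 gave 236 and 243 by 1420826_at, and its other probe sets were below both floors. By the probe set of highest mean signal, Atp2a2 was the one of these 3 genes over 2-fold apart.

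Both other measured calcineurin subunit genes were above both floors. Ppp3cc, the gamma catalytic subunit, best known in testis, gave 370.4 on replicate 1 and 261 on replicate 2 by 1430025_at, while 1420743_a_at gave 29.5, below the floor, and 122. Ppp3r1, the regulatory subunit that binds calcium, gave 335 on replicate 1 and 145 on replicate 2 by 1433591_at, over 2-fold higher on replicate 1. Its probe set 1421786_at gave 89.1 and 131, below the floor on replicate 1. Of 5 measured regulators and anchors of calcineurin 1 passed, Fkbp1a, which encodes the FK506-binding protein, with 407 on replicate 1 and 247 on replicate 2 by 1416036_at. Its other probe sets above both floors ran the other way, with 158 and 349 for 1456196_x_at and 174 and 251 for 1448184_at. Rcan1, an inhibitor of calcineurin and an NFAT target, was named after its values were seen. It gave 160.1 on replicate 1, above the floor, and 105 on replicate 2, below it.

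Of the other NFAT genes, Nfat5, which responds to osmotic stress and lacks the calcineurin-binding region, was above both floors by 1 of its 4 probe sets, with 248 on replicate 1 and 247 on replicate 2. Among 7 measured genes listed as NFAT kinases, a list that also held the adaptor genes Homer2 and Homer3, 3 were above both floors. Csnk1a1 gave 486 and 483, Gsk3a 512 and 369, and Dyrk1a 168 and 125 on replicates 1 and 2. All 3 lay within 2-fold by the probe set of highest mean signal. A second probe set of Csnk1a1, 1428537_at, gave 123 on replicate 1, below the floor, and 524 on replicate 2. The remaining probe sets of Csnk1a1 and Dyrk1a were below both floors.

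The calmodulin-dependent kinases were above both floors in 2 of 8 genes (25%), against 30.3% of all genes. Each of the 2 was over 2-fold higher on replicate 2, where 14.8% of all probe sets above both floors were. Camkk2, which activates other kinases of the family, gave 215 on replicate 1 and 1636 on replicate 2 by 1424474_a_at. Its other probe sets gave 13.6 and 10.3, and 6.3 and 7.5, all below the floors. Camk1d gave 157 on replicate 1, near the floor, and 328 on replicate 2. Camk4, a kinase of T cells and neurons, named after its values were seen, was below both floors by each of its 3 probe sets.

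Of 9 partners and targets of NFAT, 3 (33.3%) were above both floors, against 30.3% of all genes. The calcineurin-responsive factor Mef2c gave 582 on replicate 1 and 2125 on replicate 2 by 1424852_at. Of its other probe sets above both floors, 1421027_a_at gave 545 and 1308, 1451506_at 421 and 463, and 1421028_a_at ran the other way with 243 on replicate 1 and 119 on replicate 2. Mef2d gave 449 and 682 by 1434487_at, while 1421388_at gave 350.5 on replicate 1 and 78.6, below the floor, on replicate 2. Irf4, which is induced by antigen receptor signals, gave 1270.4 on replicate 1 and 348 on replicate 2 by 1421173_at. Its 1421174_at gave 107 and 11.9, below both floors. Egr2, Egr3, Fasl, Il2, Foxp3 and Cd5, known as targets or partners of NFAT in lymphocytes, were not above both floors.

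**Figure D4:**
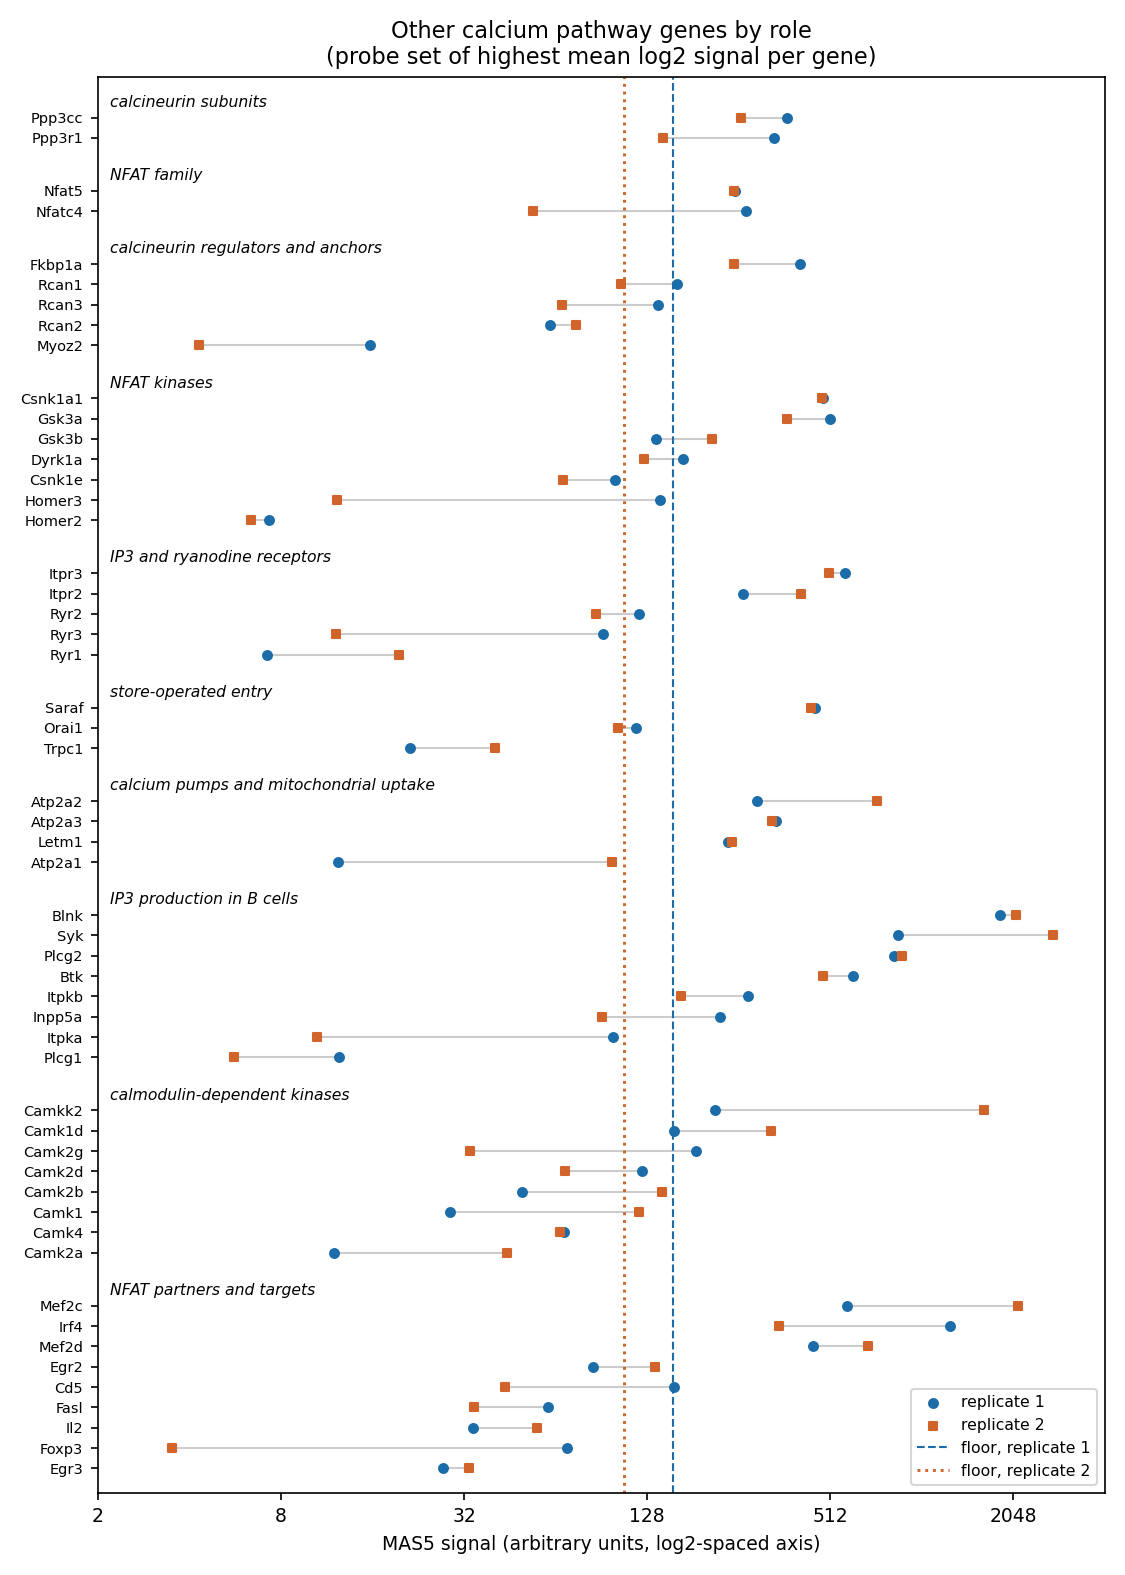
MAS5 signal (log2-spaced axis, arbitrary units) of the 53 other measured calcium pathway genes on replicate 1 (circles) and replicate 2 (squares), grouped by role, with the floor of each array as a line and 1 probe set per gene. Blnk, Plcg2 and Itpr3 lie right of both floors with nearly coinciding points, while Camkk2 and Syk read higher on replicate 2 and Irf4 on replicate 1.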

How the data were processed

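Cells sorted from mouse spleen were measured on 1 array per sample, 2 in all. Total RNA was turned into biotinylated cRNA with the standard Affymetrix protocol, per the labels' protocols. The authors deposited linear intensities, 1 signal per probe set, and the submitters' processing notes name MAS5. Its parameters are not given in the sources used here. After trimming 2% at each end, the mean signal was 150.0 and 150.1 on replicates 1 and 2. Computed here from the deposited intensities were log2 signals without further normalization, the floors, folds, and means with SD. The values hold no counts, so precision is limited by having 2 arrays. The 64 control probe sets were left out of gene results. Of 22626 other probe sets, 20380 named 1 gene, 691 several and 1555 none. Entrez identifiers gave the same symbol in RefSeq for 6 of 6 measured members. Of 54 floor genes listed, 45 were measured. Named genes were every member, plus, per role of the pathway list, up to 4 genes above both floors with the highest mean, those over 2-fold apart, and, where none passed, the highest. Genes of most similar pattern were not sought, because 2 arrays give a single difference. The members and lists were chosen with earlier results of these data known. Alternatives were a 95th-percentile floor, an array-median floor, no floor, quantile normalization, median centring, leaving out probe sets ending in _x_at, log2(signal + 32), and each array alone. Calculations used Python 3.11.15, numpy 2.4.6 and pandas 2.3.3, and were tested on simulated data.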

Additional observations from a re-analysis of the deposited data

How the results depend on the processing

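Above both floors were 7 member probe sets. There were 4 with the 95th-percentile floor (243 on replicate 1 and 143 on replicate 2), which left 1 of Nfatc1 and 3 of Ppp3ca and so 2 genes, and 1 of these probe sets was over 2-fold apart. With the array median as floor 8 probe sets of 5 genes passed, the addition being Nfatc2 1425990_a_at, where 36% of all probe sets and 43% of all genes passed. On a single array 7 to 8 probe sets, 4 to 5 member genes and 27 to 29 of the other pathway genes passed, against 34.5% of all probe sets and 42.7% of all genes on replicate 1 and 36.4% and 42.6% on replicate 2. Those other pathway genes numbered 19 to 30 under the other floors. Without a floor, 8 member probe sets were over 2-fold apart, and the median log2 difference over all 15 was -0.36. Median centring, which adds 1 amount to every difference, gave a median of 0.81 over the 7, against 0.18, and of 0.68 over all probe sets above both floors, against 0.051. It changed the sign of 2 of 15 member differences, and quantile normalization changed 1. Leaving out probe sets ending in _x_at changed none of the counts of members or pathway genes above the floor. No paired analysis was possible because both samples belong to 1 group. Signals below the floors limit what can be said of Nfatc2 and Stim1.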
